A study of Mus musculus with 8 samples.

Results

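BI-9564 added on top of PFI-3 was examined in 4 RNA-seq libraries of mouse embryonic stem cells (ESCs), 2 that received PFI-3 and BI-9564 together (P+B) and 2 that received PFI-3 alone. They are 4 of the 8 libraries of the series, chosen by their labels, and the other 4 received BI-9564 alone or the solvent DMSO, again 2 each. All 8 came from OG2 ESCs of a mixed 129SVJ, C57B6 and CBA background, which carry an Oct4-GFP reporter and a JUN transgene that doxycycline switches on (JUN TetOn). Every group, DMSO included, was given doxycycline at 2 µg/ml in 2i/LIF medium and treated for 6 h. Each comparison here is therefore between JUN-induced cells, and the effect of JUN itself cannot be read from these libraries. The sources used here do not settle whether P+B held as much PFI-3 as the PFI-3 group, so a lower dose of PFI-3 in P+B and the addition of BI-9564 cannot be told apart. The labels do not say that the 2 libraries of a group came from separate cultures, and the p-values then measure only the spread between these libraries, which may be technical.

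BAF (SWI/SNF) complexes are chromatin remodellers that open regulatory DNA, with BRG1 (SMARCA4) as the ATPase in ESCs. PFI-3 binds the bromodomain of BRG1, and BI-9564 binds the bromodomains of BRD9 and BRD7, which sit in separate forms of the complex called ncBAF and PBAF. JUN is a member of the AP-1 factors, which bind as dimers to open chromatin and are known for raising genes of adhesion, the cytoskeleton and wound repair, and which in ESCs push cells out of pluripotency.

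Expression was read as TPM, a measure of transcript abundance per gene length and library total, which the authors had made whole numbers. Values are given for replicate 1 and then replicate 2, and differences are on the log2(TPM + 1) scale, as P+B minus PFI-3, with the standard error (SE). Of 50600 rows, 10222 genes had a mean of at least 5 TPM over the 8 libraries and were tested. A gene is said to have risen or fallen where the adjusted p-value was under 0.05 and the change at least 1.5-fold, in limma with same-numbered libraries blocked. The added 1 makes changes at low TPM appear smaller than they are. TPM keeps no read depth, so the counting error behind a value is unknown.

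Among the genes that passed, more fell than rose when BI-9564 was added to PFI-3. With P+B, 245 genes were lower than with PFI-3 (2.40% of those tested) and 105 were higher (1.03%), 350 in all (3.42%). Each of the 350 moved in 1 direction in pair 1 and pair 2 alike, which the thresholds themselves favour. At least 2-fold, 104 had fallen and 27 had risen. Without the test there was no such excess, as 517 genes were at least 1.5-fold lower and 510 at least 1.5-fold higher. Both P+B libraries lay below both PFI-3 libraries for 1933 of all tested genes and above them for 2434. The fallen genes centred on a median of -0.92 and the risen genes on 0.79, beside a median of 0.03 over all genes tested. Across all 10222 genes, the differences in pair 1 and in pair 2 correlated with a Pearson's r of 0.358, a description across genes that share libraries.

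The number of genes depended on the fit and on the libraries in it. Without the replicate block 134 genes passed (1.31%), 107 lower and 27 higher, and all 134 were among the 350. A limma fit of the 4 compared libraries alone called 0 genes with or without the block. The unadjusted p-value was under 0.05 for 1863 (blocked) and 1555 (not blocked), against 2363 in the fit of 8. With 1 library left out, 0 genes passed without P+B replicate 2 and 0 without PFI-3 replicate 2, where 1689 and 1586 had an unadjusted p-value under 0.05. Without PFI-3 replicate 1 a single gene passed, which is not among the 350, and without P+B replicate 1 there were 53, of which 44 are. These 4 fits leave 1 library in a compared group, which is assumed to vary like the other groups. When a DMSO or BI-9564 library was left out, 165 to 214 genes passed. Of 82 named genes that passed, 44 lost their call without the block. None of these 82 changed direction in any of these fits, which share libraries, and the calls favour genes whose pairs agree.

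**Figure D1:**
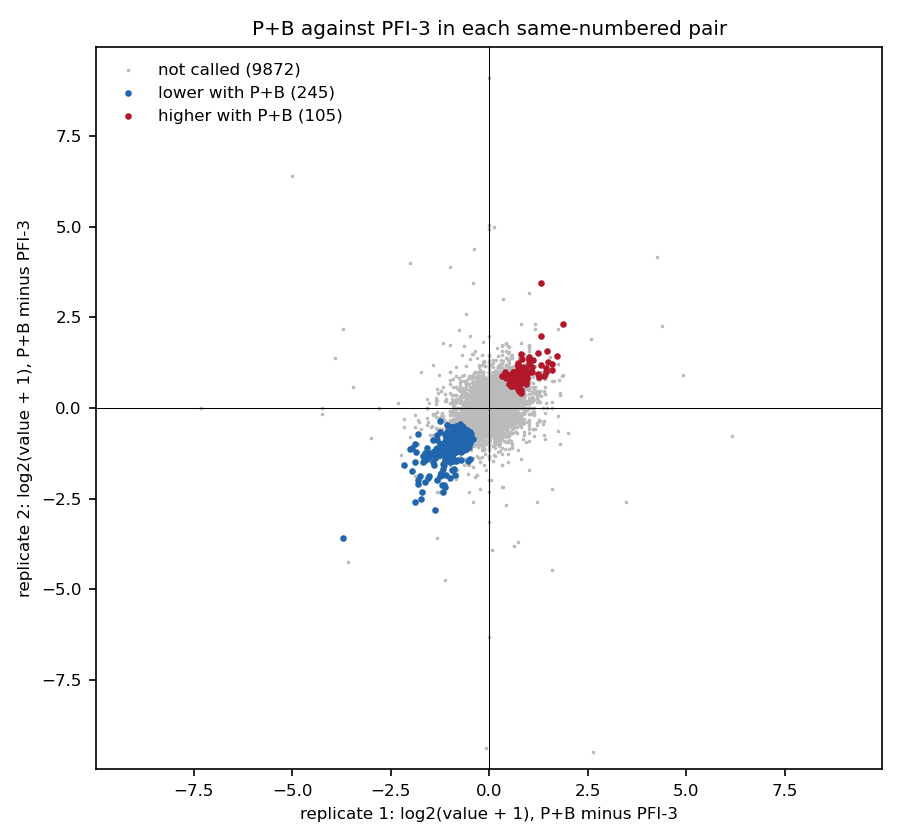
Difference between P+B and PFI-3 in log2(value + 1) for each of the 10222 tested genes, in the replicate 1 libraries (horizontal) and the replicate 2 libraries (vertical). The 245 genes that fell lie at the lower left and the 105 that rose at the upper right, below or above 0 in both pairs.

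The genes of JUN's own family are described first. *Jun* stood at 1570 and 2227 TPM with PFI-3 and at 1569 and 2159 with P+B, a difference of -0.02 ± 0.04 (SE), and whether transgene reads are in these values is not stated. *Fosl1*, which encodes the AP-1 partner FRA1, stood at 29 and 35 with PFI-3 and at 12 and 9 with P+B. Both P+B libraries were below all 6 others, the fall was 2.88-fold (-1.53 ± 0.23 (SE), adjusted p = 0.0128), and the gene overlaps *Ccdc85b* on the other strand. *Atf3*, a stress-induced AP-1 partner, fell from 17 and 20 to 10 and 13 (-0.65 ± 0.13 (SE), adjusted p = 0.0382), a call that was lost without the block (adjusted p = 0.123). Of 12 tested AP-1 family genes, *Fosl1* and *Atf3* fell and none rose, with a median of -0.33. The shares to set beside this and each later list are 2.40% fallen and 1.03% risen of all tested genes.

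*Anxa1*, which encodes the membrane-binding annexin A1, is with *Fosl1* among the JUN targets that the study itself names. It went from 39 and 26 TPM with PFI-3 to 21 and 12 with P+B (-0.96 ± 0.16 (SE), adjusted p = 0.019), and without the block it missed the threshold (adjusted p = 0.129). *Anxa1* overlaps *1500015L24Rik* on the other strand. Of that list of 6, only *Fosl1*, *Anxa1* and *Fosl2* had enough signal to be tested, and 2 of the 3 fell. *Fosl2*, another FOS-related partner, stood at 24 and 29 against 19 and 14 and did not pass (adjusted p = 0.0661). The study names these genes from its own experiments, some of them with the same compounds, so their direction is no independent evidence.

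*Emp1*, a membrane protein of epithelia, had the smallest standard error among the 12 largest falls. It stood at 80 and 75 TPM with PFI-3 and at 21 and 26 with P+B, 3.22-fold lower (-1.69 ± 0.11 (SE), adjusted p = 0.0014). The gene lies at chr6:135362545-135383173 on the plus strand of GRCm38. *Plaur*, the receptor that holds the protease urokinase at the cell surface, fell from 220 and 216 to 107 and 92 (-1.13 ± 0.08 (SE), adjusted p = 0.00152), and lies at chr7:24462484-24475968 on the plus strand. Their promoters are shown because both hold the AP-1 motif TGANTCA, searched on both strands, within 250 bases before to 50 bases after a RefSeq transcription start on GRCm38.p6. The window of *Emp1* is chr6:135362681-135362980, with motifs that begin 145 and 25 bases before the start, and that of *Plaur* is chr7:24462233-24462532, with one that begins 69 bases before it. The RefSeq start used for *Emp1* lies downstream of the gene start given above. Both *Emp1* motifs therefore lie inside the gene at that position. Capitals mark the motifs, and both windows are on the plus strand.
Emp1: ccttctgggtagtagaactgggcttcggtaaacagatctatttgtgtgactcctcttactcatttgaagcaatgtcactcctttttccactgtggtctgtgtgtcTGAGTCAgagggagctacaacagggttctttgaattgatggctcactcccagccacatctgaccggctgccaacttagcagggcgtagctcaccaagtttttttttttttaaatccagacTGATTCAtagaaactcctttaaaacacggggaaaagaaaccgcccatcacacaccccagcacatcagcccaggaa
Plaur: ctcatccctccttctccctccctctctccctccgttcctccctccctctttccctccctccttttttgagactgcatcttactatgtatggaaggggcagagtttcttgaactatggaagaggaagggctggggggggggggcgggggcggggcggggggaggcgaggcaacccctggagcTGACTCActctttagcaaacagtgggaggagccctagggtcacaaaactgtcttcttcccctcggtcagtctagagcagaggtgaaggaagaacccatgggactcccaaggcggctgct

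Such letters are not rare. They occurred in 7.81% of all 32851 RefSeq windows of this length, in 4.55% of the 9946 windows of tested genes, in 10.1% of the 258 windows of fallen genes and in 3.77% of the 106 windows of risen genes. Names matched for 7783 of 10217 distinct tested genes, 177 of the 245 fallen and 84 of the 105 risen, and a gene with several starts has several windows. Among other named genes, *Itga3*, *Lmna*, *Tmem40* and *Kat2b* held the motif. That listing is not complete, as *Lama3*, *Hbegf* and *Tnfaip8* were left out of it, and so were genes without a matched name. The shares are descriptions of letters, and binding was not measured.

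In each of 6 lists of cell adhesion and cell shape 3 to 6 genes fell and 0 rose, where 2.40% of all tested genes fell and 1.03% rose. Of 9 tested integrin subunits, which join the cytoskeleton to the matrix outside, *Itga3*, *Itga5* and *Itga6* fell, with a median of -0.25 over the list. *Itga6*, the laminin-binding subunit abundant in ESCs, went from 147 and 130 TPM to 76 and 70 (-0.91 ± 0.07 (SE), adjusted p = 0.0017). *Itga3*, another laminin-binding subunit, went from 35 and 40 to 18 and 16 (-1.10 ± 0.13 (SE), adjusted p = 0.0067). *Itga5*, which pairs to bind fibronectin, went from 54 and 76 to 32 and 38 (-0.86 ± 0.10 (SE), adjusted p = 0.00581), and passed only with the block (adjusted p = 0.102 without it). In all 3 genes both P+B libraries were the lowest of the 8.

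Among 23 tested genes of the focal adhesion plaque, 4 fell, with a median of -0.13. *Tns1*, the actin-binding plaque protein tensin 1, had the largest change, from 31 and 30 TPM to 9 and 10 (-1.59 ± 0.18 (SE), adjusted p = 0.00581). *Tns3* went from 43 and 46 to 22 and 26 and *Parvb*, which links integrins to actin, from 47 and 35 to 28 and 21. *Src*, the kinase that signals from adhesions, went from 59 and 51 to 33 and 36 (-0.66 ± 0.12 (SE), adjusted p = 0.0232). *Parvb* alone of these 4 was lost without the block (adjusted p = 0.197).

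The actin and contractility list had 4 fallen genes of 31, with a median of -0.17 and 27 of 31 differences below 0. *Misp*, an actin-bundling protein that positions the mitotic spindle, fell from 19 and 16 TPM to 5 and 2 (-2.12 ± 0.30 (SE), adjusted p = 0.0104). *Flnc*, the crosslinker filamin C, fell from 25 and 21 to 10 and 5 (-1.56 ± 0.24 (SE), adjusted p = 0.0136). *Lmna*, which encodes the nuclear lamins A and C, went from 90 and 88 to 45 and 37 (-1.11 ± 0.14 (SE), adjusted p = 0.00762). *Tgm2*, a protein-crosslinking enzyme, went from 11 and 7 to 3 and 2 and passed only with the block (adjusted p = 0.106 without it), and it overlaps *Rprd1b* on the other strand. Outside the list, *Gsn*, the actin-severing protein gelsolin, fell from 45 and 32 to 14 and 7 (-1.83 ± 0.21 (SE), adjusted p = 0.00581).

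Matrix genes and the plasminogen system, which degrades matrix, showed the same direction. Of 25 tested, 6 fell, with a median of -0.24. *Plaur*, described above, was among them. *Lama3*, a laminin chain of epithelial basement membranes, fell from 17 and 20 TPM to 8 and 7 (-1.20 ± 0.19 (SE), adjusted p = 0.0164). *Timp1*, an inhibitor of metalloproteases, went from 154 and 119 to 81 and 59, and overlaps *Syn1*. *Spp1*, the secreted adhesion protein osteopontin, went from 565 and 414 to 347 and 280 (-0.63 ± 0.06 (SE), adjusted p = 0.00321) and missed the threshold without the block (adjusted p = 0.149).

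Annexins and S100 proteins, calcium-binding proteins of the membrane and cortex, had all 12 tested differences below 0 and a median of -0.56, and 4 of the 12 fell. *Anxa7* went from 172 and 191 TPM to 107 and 108 (-0.75 ± 0.08 (SE), adjusted p = 0.00501). *S100a10*, the annexin A2 partner, went from 250 and 179 to 137 and 120 (-0.72 ± 0.09 (SE), adjusted p = 0.00625), and was lost without the block (adjusted p = 0.0903). *S100a6* differed more between the replicate series than between treatments, with 315 and 108 against 148 and 51. Within each pair it fell by about the same factor (-1.08 ± 0.08 (SE), adjusted p = 0.00152), and without the block the adjusted p-value was 0.494.

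Epithelial genes followed. Of 19 tested genes of keratins and junctions 5 fell and none rose, with a median of -0.43 and 18 of 19 differences below 0. *Krt18* and *Krt8* encode the keratin pair of simple epithelia. *Krt18* fell from 66 and 51 TPM to 27 and 20 (-1.28 ± 0.12 (SE), adjusted p = 0.00321) and *Krt8* from 101 and 81 to 53 and 30 (-1.16 ± 0.12 (SE), adjusted p = 0.00386), the latter only with the block (adjusted p = 0.104 without it). The desmosome genes *Dsp*, from 31 and 39 to 13 and 17, and *Pkp3*, from 31 and 34 to 17 and 15, both fell, *Pkp3* with an adjusted p-value of 0.0655 without the block. *Cldn6*, a tight-junction claudin of early epithelia, fell from 64 and 74 to 29 and 26 (-1.29 ± 0.16 (SE), adjusted p = 0.00641). *Sfn*, the 14-3-3 protein sigma of epithelial cells, was the most abundant of the fallen genes named here, at 727 and 596 with PFI-3 and 336 and 235 with P+B (-1.23 ± 0.08 (SE), adjusted p = 0.0014). *Krt16*, a keratin of stressed epidermis, went from 13 and 3 to 3 and 0, and was lost without the block (adjusted p = 0.343).

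**Figure D2:**
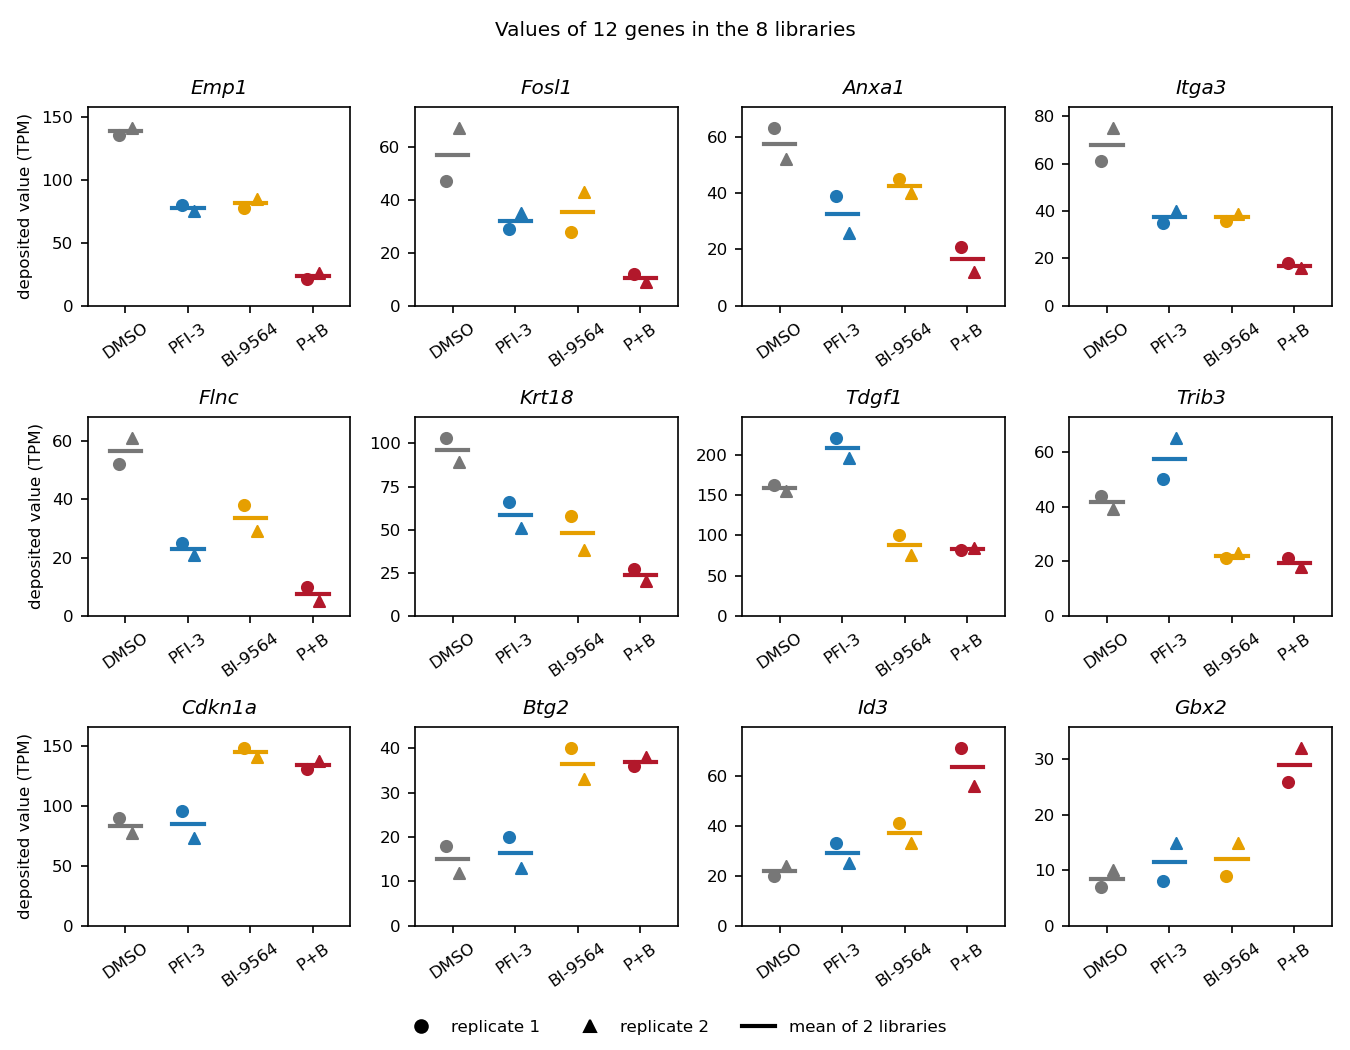
TPM of 12 genes (vertical axes, each from 0) in the 8 libraries by group, with circles for replicate 1, triangles for replicate 2 and a bar at the mean of the 2. The top row and Flnc and Krt18 stepped down from DMSO through either compound to P+B, Tdgf1 and Trib3 were high with PFI-3 and low in both groups that held BI-9564, Cdkn1a and Btg2 were high in both groups with BI-9564, and Gbx2 stood at 26 and 32 with P+B against 7 to 15 elsewhere.

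The remaining genes with the largest falls were of mixed function. *Ackr3*, a scavenger receptor for the chemokine CXCL12, went from 21 and 11 TPM to 5 and 1, the largest fall among named genes (-2.23 ± 0.26 (SE), adjusted p = 0.00607), though it passed only with the block (adjusted p = 0.106 without it). *Cmklr1*, the receptor of chemerin, went from 15 and 21 to 6 and 4, and *Zbtb32*, a zinc finger repressor, from 52 and 49 to 17 and 12. *Ociad2* went from 26 and 19 to 6 and 5. *Aim1l* went from 17 and 24 to 7 and 4. *Prss35* (22 and 10 to 7 and 2) and *Tmem40* (12 and 14 to 3 and 2) missed the threshold without the block, at adjusted p-values of 0.162 and 0.106.

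Growth factor and ERK genes gave a mixed picture. Their counts are to be set beside 2.40% fallen and 1.03% risen of all tested genes. The AP-1 and ERK-responsive phosphatases *Dusp1* and *Dusp5*, which switch MAP kinases off, both fell. *Dusp1* went from 252 and 263 TPM to 156 and 139 (-0.80 ± 0.08 (SE), adjusted p = 0.00386), and overlaps *Ergic1* on the other strand, and *Dusp5* went from 70 and 63 to 34 and 28 (-1.08 ± 0.12 (SE), adjusted p = 0.00551). *Ier3*, an immediate early gene, went from 15 and 13 to 5 and 5 (adjusted p = 0.0438, and 0.0912 without the block). Over the ERK feedback and immediate early list of 21, 3 fell and 1 (*Phlda3*) rose, with a median of -0.17. *Hbegf*, a ligand of the EGF receptor, fell from 22 and 15 to 8 and 6 (-1.27 ± 0.15 (SE), adjusted p = 0.00606), a call lost without the block (adjusted p = 0.0622), and with *Fgf4* it made 2 fallen of 11 growth factors and receptors, whose median of 0.08 ran from -0.28 to 0.08 with 1 library left out. *Myc* went from 26 and 25 to 16 and 15 (-0.68 ± 0.14 (SE), adjusted p = 0.0328), also lost without it (adjusted p = 0.0739), and was the sole called gene of 10 in the MYC network, and with *Fosl1* 1 of 2 fallen of 11 in the BET and P-TEFb list (median 0.07). *Ccnd1*, cyclin D1, went from 40 and 58 to 25 and 26 (adjusted p = 0.0216, and 0.079 without the block), and it overlaps *LTO1*. *Tead4*, the DNA-binding partner of YAP, went from 63 and 60 to 45 and 22 (adjusted p = 0.0467, and 0.14 without the block), and was the 1 called gene of 17 in the YAP-TEAD list, whose median was -0.04.

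In the Nodal pathway 2 of 16 tested genes fell, where 2.40% of all tested genes did. The median was 0.13, and it lay between 0.04 and 0.18 with 1 library left out. *Tdgf1*, the Nodal co-receptor Cripto, stood at 221 and 196 TPM with PFI-3 and at 82 and 84 with P+B (-1.32 ± 0.11 (SE), adjusted p = 0.00203). PFI-3 alone was above DMSO (163 and 156) for *Tdgf1*, and BI-9564 alone was below it (101 and 76). *Lefty2*, a secreted Nodal antagonist, went from 20 and 12 to 10 and 3 and was lost without the block (adjusted p = 0.348).

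In the BMP and Wnt lists the medians were above 0, and their calls stand beside 1.03% risen and 2.40% fallen of all tested genes. All 7 tested genes of the BMP and ID list had differences above 0 and 1 of them rose, with a median of 0.33 that lay between 0.06 and 0.33 with 1 library left out. This was *Id3*, a BMP-induced inhibitor of differentiation factors, from 33 and 25 TPM to 71 and 56 (1.11 ± 0.17 (SE), adjusted p = 0.0142). *Sp5*, a direct Wnt target, rose from 6 and 13 to 22 and 37 (1.58 ± 0.21 (SE), adjusted p = 0.00898), with both P+B libraries above all 6 others, and was lost without the block (adjusted p = 0.199). The Wnt list of 11 had a median of 0.33 with 1 risen and 1 fallen (*Ccnd1*). *Gbx2*, a STAT3-responsive homeobox gene of naive ESCs, rose from 8 and 15 to 26 and 32 (1.31 ± 0.19 (SE), adjusted p = 0.0127), and it overlaps *D130058E05Rik* on the other strand and was lost without the block (adjusted p = 0.106). It was the 1 called gene of 12 in the LIF-STAT3 list.

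Some pluripotency genes passed, to be set beside 3.42% of all tested genes (2.40% fallen and 1.03% risen). Of 18 tested naive genes *Gbx2* rose and *Fgf4* fell, with a median of -0.32 and 14 differences below 0. The unadjusted p-value in limma was under 0.05 for 12 of the 18, and for 2363 of all 10222. PFI-3 alone was above DMSO in each pair for *Nanog*, *Zfp42*, *Esrrb*, *Klf4*, *Tfcp2l1* and *Dppa5a*, so a fall from PFI-3 need not be a fall below DMSO. *Fgf4*, the autocrine factor that drives ESCs towards differentiation, went from 55 and 53 TPM to 33 and 19 (-1.08 ± 0.19 (SE), adjusted p = 0.0232; 0.145 without the block). Of 11 core genes *Tdgf1* alone fell, and of 7 formative genes *Cldn6* alone. The regulators *Pou5f1*, *Nanog* and *Sox2* were singled out after their values were seen. *Pou5f1* stood at 1333 and 1299 against 1211 and 1124 (DMSO 1273 and 1281), and *Nanog* at 106 and 57 against 68 and 46 (DMSO 71 and 40). Neither passed (adjusted p = 0.0621 and 0.0676), nor did *Sox2* (adjusted p = 0.0813).

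Markers of ESCs were present, with 10 of 10 at a mean of at least 5 TPM and a summed level of 4341 to 5359 with PFI-3 and 3723 to 4709 with P+B. Of 11 fibroblast markers none reached that mean and 6, among them *Col1a2*, *Pdgfra* and *Dcn*, were listed at 0 throughout. Of 14 primitive endoderm markers 2 reached it, with sums of 28 to 30 and 27 to 34, and of 12 mesendoderm markers 1 did, with sums of 10 to 12 and 12 to 16. Neuroectoderm markers (2 of 10) summed to 105 to 106 and 113 to 136. Trophectoderm markers (4 of 11) summed to 132 to 153 with PFI-3 and 70 to 96 with P+B, which holds *Krt18* and *Tead4*, while *Krt7* and *Dlx3* were listed at 0. The part of a change in the share of such cells in the epithelial genes was not tested, and in bulk RNA fewer cells of a type and less RNA per cell cannot be told apart. Genes of the two-cell-like state summed to 21 and 112 with PFI-3 and to 22 and 114 with P+B, so the 2 replicate series lay far apart and the 2 groups close together.

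The p53 response held the most risen genes of the 42 lists. Of 19 tested, 8 rose and none fell, with 15 differences above 0 and a median of 0.60, while the share of all tested genes that rose was 1.03%. *Btg2*, an antiproliferative gene, rose from 20 and 13 TPM to 36 and 38 (1.15 ± 0.18 (SE), adjusted p = 0.0163). *Trp53inp1* rose from 51 and 30 to 86 and 68 (0.95 ± 0.13 (SE), adjusted p = 0.00857), and *Aen*, a nuclease of p53-driven apoptosis, from 79 and 77 to 123 and 132 (0.70 ± 0.10 (SE), adjusted p = 0.0107). *Cdkn1a*, the cyclin-dependent kinase inhibitor p21, went from 96 and 73 to 131 and 137 (0.67 ± 0.11 (SE), adjusted p = 0.0189). *Ccng1* went from 120 and 81 to 158 and 163 and *Eda2r* from 20 and 16 to 32 and 27. *Phlda3*, an inhibitor of AKT, went from 112 and 81 to 141 and 151, and *Sesn2*, which restrains mTORC1, from 66 and 58 to 98 and 93. In all 8 both P+B libraries lay above both PFI-3 libraries. Without the block only *Aen* kept its call, and the adjusted p-values of the other 7 ran from 0.0655 for *Cdkn1a* to 0.165 for *Trp53inp1*. The median lay between 0.37 and 0.64 with 1 library left out. *Trp53* itself, looked up after the values were seen, was at 459 and 445 against 439 and 414.

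The amino acid stress response, which the factor ATF4 controls, split. Of 28 tested genes 3 fell and 2 rose, with a median of -0.18, where 2.40% of all tested genes fell and 1.03% rose. *Chac1*, which breaks down glutathione, fell from 13 and 16 TPM to 3 and 3 (-1.95 ± 0.32 (SE), adjusted p = 0.0186), and *Trib3*, a pseudokinase that feeds back on ATF4, from 50 and 65 to 21 and 18 (-1.50 ± 0.16 (SE), adjusted p = 0.00527). *Chac1* reached the mean of 5 TPM only through its high PFI-3 values, so the filter itself favours its fall. *Slc7a3*, a transporter of cationic amino acids, went from 56 and 51 to 29 and 25. *Ddit4*, an inhibitor of mTORC1, rose from 20 and 15 to 41 and 40 (adjusted p = 0.0332, and 0.119 without the block), and *Sesn2*, which the p53 list also holds, rose as given above. The promoters of *Chac1* and *Trib3* are shown because each holds the composite C/EBP-ATF element TGATGNAA, searched on both strands (TTNCATCA on the other), in capitals. That of *Chac1* is chr2:119350992-119351291 on the plus strand, with the element 193 bases before the start, and that of *Trib3* is chr2:152344011-152344310 on the minus strand, with the element within the 50 bases after the start.
Chac1: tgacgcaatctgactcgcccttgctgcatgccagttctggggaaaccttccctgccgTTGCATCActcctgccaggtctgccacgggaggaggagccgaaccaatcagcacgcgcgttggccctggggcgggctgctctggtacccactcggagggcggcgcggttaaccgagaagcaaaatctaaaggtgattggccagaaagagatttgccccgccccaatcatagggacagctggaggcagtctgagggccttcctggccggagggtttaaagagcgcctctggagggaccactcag
Trib3: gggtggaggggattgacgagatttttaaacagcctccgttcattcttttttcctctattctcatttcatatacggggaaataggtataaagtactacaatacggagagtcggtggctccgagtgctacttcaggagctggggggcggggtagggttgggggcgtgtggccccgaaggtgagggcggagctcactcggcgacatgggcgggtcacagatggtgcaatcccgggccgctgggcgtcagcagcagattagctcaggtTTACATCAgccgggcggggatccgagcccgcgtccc

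The element was in 3.97% of all windows, 1.99% of those of tested genes, 4.65% of those of fallen genes and 1.89% of those of risen genes. Among other named genes, with the same ones left out as for the AP-1 motif, *Atf3* and *Sfn* held it. Of the neighbouring stress lists, *Xbp1*, a factor of the unfolded protein response, was the 1 fallen gene of 18 (2.40% of all tested genes fell). It went from 40 and 48 TPM to 23 and 23. *Hspa1b* was the 1 risen heat shock gene of 15 (1.03% of all tested genes rose), from 10 and 6 to 19 and 13. Neither passed without the block (adjusted p = 0.079 and 0.191), and *Hspa1b* has a near-identical neighbour whose reads the authors' counting could split.

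Among the most abundant risen genes were *H3f3b*, *Polr2a* and *Dynll1*. *H3f3b*, which encodes the replacement histone H3.3, rose from 570 and 563 TPM to 870 and 883 (0.63 ± 0.04 (SE), adjusted p = 0.0014), with DMSO at 612 and 603. With median centring its difference was 0.583, just under the 1.5-fold threshold, and the call was lost. *Polr2a*, the largest subunit of RNA polymerase II, rose from 205 and 228 to 336 and 372 (0.71 ± 0.07 (SE), adjusted p = 0.00328). *Dynll1*, a light chain of dynein, rose from 313 and 244 to 463 and 403 and was lost without the block (adjusted p = 0.106). On the other side *Uck2*, a kinase of pyrimidine salvage, fell from 374 and 390 to 251 and 253 (-0.60 ± 0.06 (SE), adjusted p = 0.00386).

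The largest rises lay at low levels. *Nova1*, a splicing factor of neurons, stood at 2 and 1 TPM with PFI-3 and at 10 and 9 with P+B (2.10 ± 0.41 (SE), adjusted p = 0.032), and whole-number values this small are coarse. *Tnfaip8* went from 3 and 2 to 9 and 11. *Nrarp*, a feedback gene of Notch signalling, went from 4 and 4 to 13 and 11, and *Hoxc13* from 6 and 5 to 18 and 12. *Nova1*, *Tnfaip8* and *Nrarp* reached the mean of 5 TPM only through their high P+B values. Their place among the largest rises is therefore partly set by that filter. *Fam222a*, *Hpcal1*, *Pitpnm2*, *Olfm1* and *Actr5*, the last a subunit of the INO80 remodeller, rose by 1.21 to 1.40 in log2 from 3 to 7 TPM with PFI-3. Of the 12 genes with the largest rise only *Ccdc9*, from 21 and 32 to 59 and 65, passed without the block as well (adjusted p = 0.0461), and the other 11 then had adjusted p-values from 0.0602 (*Tnfaip8*) to 0.199 (*Sp5*).

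The subunits of the complexes that the compounds bind showed no change that passed. Of 24 tested BAF, PBAF and ncBAF genes 0 passed in limma with the block or without it, and the median was 0.08. In the blocked fit 5 of them had an unadjusted p-value under 0.05, as had 2363 of all 10222 tested genes. *Smarca4* stood at 119 and 132 TPM with PFI-3 and 136 and 147 with P+B (0.17 ± 0.07 (SE), adjusted p = 0.175). *Brd9*, looked up after the values were seen, was at 24 and 21 against 23 and 23 and *Brd7* at 75 and 67 against 74 and 70. *Smarcb1* and *Actl6a* gave 0.14 and -0.13 and did not pass. *Kat2b*, a histone acetyltransferase, was the 1 called gene of 22 in its list, from 33 and 28 to 22 and 18 (adjusted p = 0.0406, and 0.137 without the block). Over all tested genes the called share was 3.42%. Of 9 DNA methylation genes 8 had differences below 0 (median -0.26), 4 had an unadjusted p-value under 0.05 and 0 passed both thresholds in limma. *Dnmt3l*, a cofactor of the de novo enzymes, stood at 179 and 172 against 136 and 136 (-0.37 ± 0.07 (SE), adjusted p = 0.0267), which passed the p-value and not the 1.5-fold threshold.

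In several lists of general cell functions no gene passed. Over all 10222 tested genes, 2363 had an unadjusted p-value under 0.05 in limma, which is the share to set beside the counts below. None passed in limma among 30 of G2/M and mitosis (median 0.00, 6 at an unadjusted p-value under 0.05), 33 of oxidative phosphorylation (0.03, 2 such genes) or 46 of ribosomal proteins (0.02, 9 such genes). Median centring turned these 3 medians to -0.04, -0.01 and -0.03. Likewise 0 passed among 30 of sterol and fatty acid synthesis (0.08, 6 such genes), 29 of the lysosome (-0.05, 4) and 15 of NRF2 targets and metallothioneins (-0.08, 7). *Cdk1*, the mitotic kinase, stood at 314 and 315 TPM against 288 and 350, and *Atp5b*, of ATP synthase, at 1837 and 1807 against 1822 and 1783. Of 30 ribosome biogenesis genes 0 passed, 10 had an unadjusted p-value under 0.05 and 26 had differences below 0 (median -0.15). Over all tested genes 2.40% fell and 1.03% rose. Of 28 G1/S genes *Ccnd1* fell and *Cdkn1a* rose (median -0.12), and of 23 glycolysis genes (median -0.15) *Hk2*, hexokinase 2, fell from 164 and 171 to 110 and 109 (-0.61 ± 0.07 (SE), adjusted p = 0.0053).

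**Figure D3:**
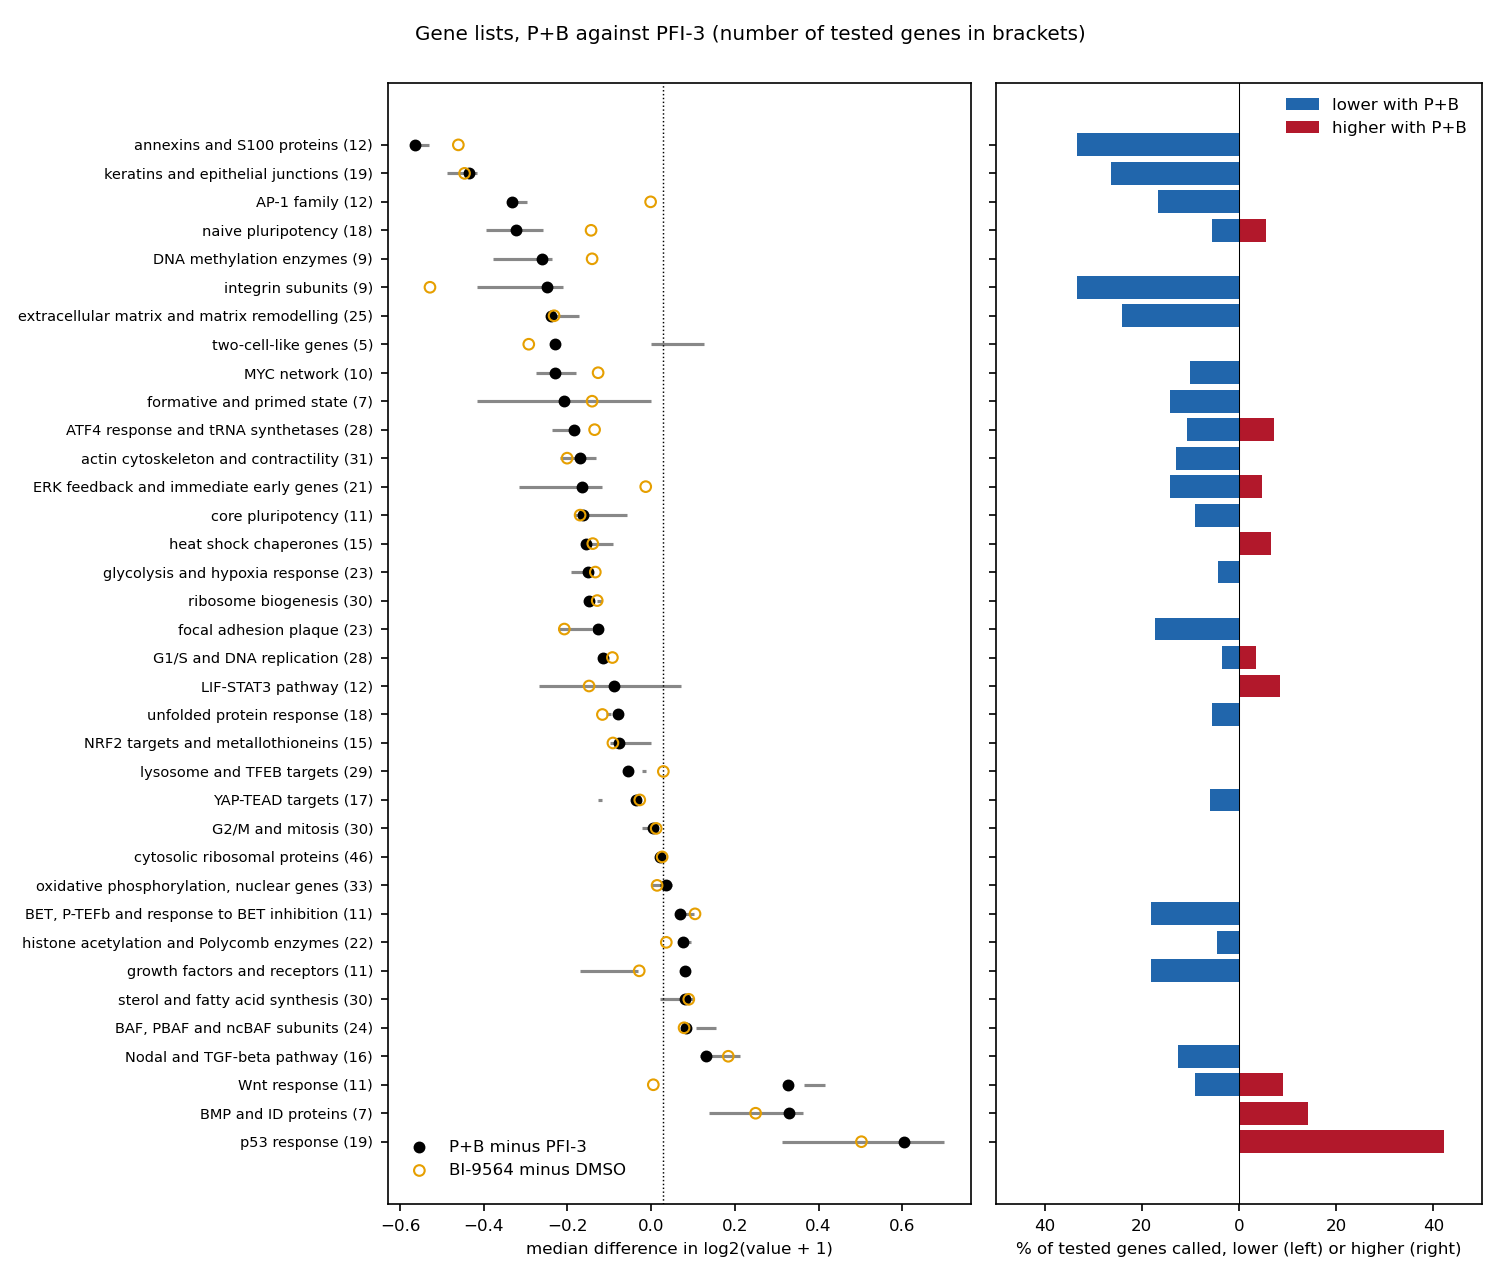
Gene lists with at least 5 tested genes, with the median difference in log2(value + 1) at left (filled, P+B minus PFI-3; open, BI-9564 minus DMSO; grey line, between the medians of the 2 pairs, which need not span the filled point; dotted line, median of all genes, 0.03) and the percentage of tested genes that fell or rose with P+B at right. The annexin list has the lowest filled point (-0.56) and the p53 list the highest (0.60), with 8 of its 19 genes risen.

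The same addition can be read without PFI-3, from the 2 BI-9564 and the 2 DMSO libraries, which share no library with the comparison above. There 106 genes were lower with BI-9564 (1.04%) and 50 higher (0.489%), 156 in all (1.53%), and 11 without the block. With 1 library of any group left out, 0 or 1 gene passed. In all, 99 genes passed in both comparisons, 28.3% of the 350 and 63.5% of the 156, and all 99 moved the same way, 78 lower and 21 higher. The 245 genes that fell on top of PFI-3 had a median of -0.62 in BI-9564 minus DMSO, with 239 below 0, and the 105 that rose had 0.51, with 101 above 0. Across all tested genes Pearson's r between both differences was 0.540 and Spearman's rho 0.543, as a description, since the libraries were fitted together and share replicate series.

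Whether the size of the addition depended on PFI-3 was tested gene by gene as the difference between both differences. It passed for 0 of 10222 genes in limma, with or without the block. The unadjusted p-value was under 0.05 for 588 genes, where 511.1 would be reached if no gene differed, and for 333 without the block. For *Emp1* the addition was -1.69 with PFI-3 and -0.76 without it, and the 95% interval of the difference ran from -1.29 to -0.57. *Sfn* gave -1.23 and -0.58, with an interval from -0.90 to -0.39, and *Plaur* -1.13 and -0.49, with one from -0.91 to -0.37. These intervals are not adjusted for the number of genes, and the smallest adjusted p-value over all genes was 0.672. *Emp1*, *Sfn* and *Plaur* are named because they fell on top of PFI-3, and that fall is part of the difference. Such a choice favours intervals away from 0. For *Btg2* the additions were 1.15 and 1.25, with an interval from -0.71 to 0.50. For *Misp* they were -2.12 and -2.28, with one from -0.82 to 1.14. Differences within those bounds are compatible with these values.

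**Figure D4:**
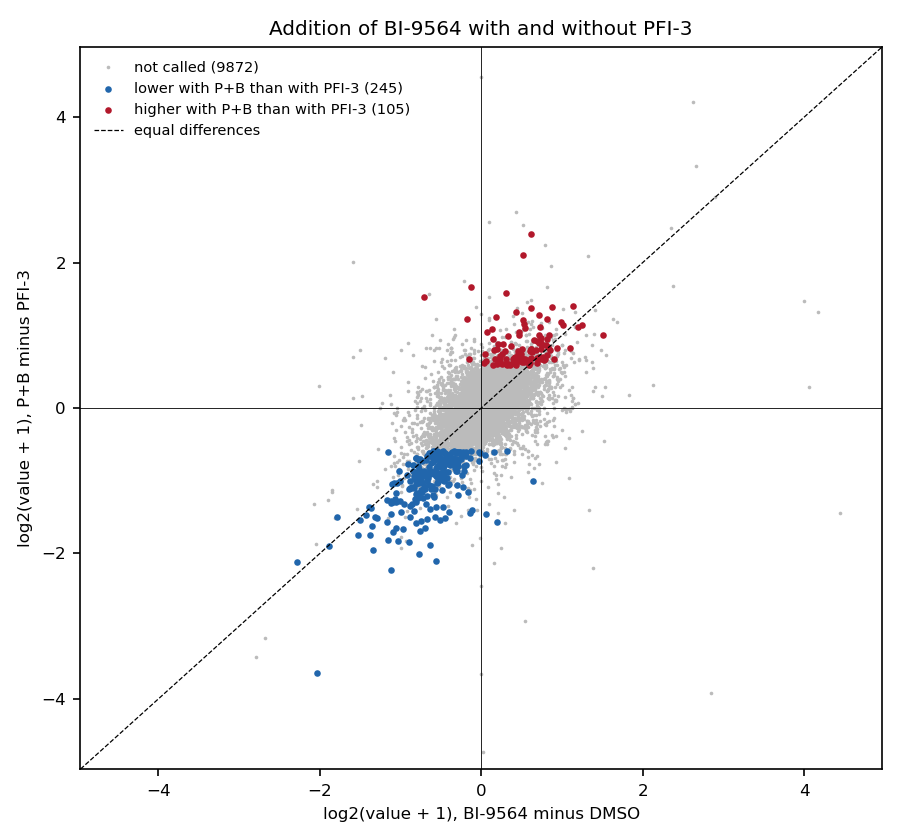
Difference in log2(value + 1) for the 10222 tested genes, BI-9564 minus DMSO (horizontal) and P+B minus PFI-3 (vertical), with the 245 fallen and 105 risen genes coloured and the dashed line where both differences are equal. Of the coloured genes, 239 fallen ones lie left of 0 and 101 risen ones right of 0.

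Set against DMSO, the fallen genes had a median of -0.14 under PFI-3, of -0.62 under BI-9564 and of -1.11 under P+B, and the risen genes had -0.08, 0.51 and 0.71 in that order. These comparisons share the DMSO libraries. The P+B libraries were the lowest 2 of all 8 for 163 of the 245 fallen genes (584 of all 10222) and the highest 2 for 53 of the 105 risen genes (749 of all). PFI-3 alone lay below DMSO without overlap for 95 of the fallen genes (1313 of all), among them *Emp1*, *Fosl1*, *Itga3*, *Flnc* and *Krt18*, and above it for 29 (1685 of all), among them *Tdgf1*, *Trib3* and *Fgf4*, while both groups overlapped for the other 121. The choice of fallen and risen genes uses both the PFI-3 and the P+B values. It favours fallen genes that are high with PFI-3 and low with P+B, and the reverse for risen genes. The counts of lowest and highest libraries and the P+B medians against DMSO are therefore no independent evidence. For *Emp1* the DMSO libraries read 136 and 141 TPM, either compound alone gave 75 to 85, and P+B gave 21 and 26. *Trib3* instead stood at 44 and 39 in DMSO and at 50 and 65 under PFI-3, while BI-9564 gave 21 and 23 and P+B 21 and 18, so the last 2 groups overlapped.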

How the data were processed

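RNA was measured in 8 libraries, 4 groups of 2, grouped by their labels. The deposited table holds a score per gene: TPM values, which the authors turned into whole numbers. The submitters' processing notes name bcl2fastq, Bowtie2 2.2.5, RSEM 1.3.0 and mm10, and the annotation and strand setting are not given in the sources used here. Libraries summed to 991574 to 991897. Of 50600 rows, 94 had a repeated name, 27 a date as a name and 33075 were at 0 throughout.

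For the 10222 genes whose mean was 5 or more, log2(value + 1) was fitted in R 4.3.3 by limma 3.58.1 (lmFit, eBayes with a trend). All 8 libraries were fitted together, with the replicate number as a block, leaving 3 residual degrees of freedom. The rule set for this comparison takes same-numbered libraries as pairs. The replicate 1 minus replicate 2 difference correlated weakly across genes in all 6 pairs of groups (Pearson's r between 0.143 and 0.236). Tests were two-sided, with Benjamini-Hochberg adjustment over all genes. An exact permutation test of 2 against 2 libraries cannot go below a p-value of 0.333 and was not used. TPM holds no depth, so tools for counts were not run.

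The comparison and the 42 gene lists, from general knowledge, were chosen with earlier results of these data known. Named are the 12 largest falls and 12 largest rises among called genes with an established symbol, the 6 of the rest with the highest mean, up to 6 called genes of each list, and up to 3 of the highest where none was called. Some genes that this rule names are not reported here. Positions are from GENCODE M21 (GRCm38) and promoter windows from RefSeq (GRCm38.p6). The procedure was tested on simulated data. The alternatives were no block, the 4 compared libraries alone, other pseudocounts, filters and scalings, no trend, other thresholds and leaving out each library.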

Additional observations from a re-analysis of the deposited data

Results flagged for a closer look

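Of the named genes that passed with P+B, *Ccdc9* is the 1 for which BI-9564 moved both pairs up on top of PFI-3 and both pairs down without it. It stood at 21 and 32 TPM with PFI-3 and 59 and 65 with P+B, and at 43 and 31 with DMSO and 36 and 29 with BI-9564. The addition was larger with PFI-3 by 1.40 in log2, with an unadjusted p-value of 0.00327 and an adjusted p-value of 0.771 in limma, so the difference did not pass. 5 named genes that did not pass with P+B also moved in opposite directions in both pairs of the 2 additions. Their differences of additions were 0.99 for *Zscan4e*, 0.078 for *Mt2*, -0.12 for *Psap*, -0.046 for *Atp5b* and -0.14 for *Nop56* in log2, and with adjusted p-values of 0.820 to 0.951 none of them passed.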

How the results depend on the processing

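The counts are given as P+B against PFI-3 (lower and higher), then BI-9564 against DMSO (lower and higher). Without the replicate block they were 134 (107 and 27) and 11 (8 and 3), and the numbers pair the libraries as described above. Fits of the 4 compared libraries alone, with or without the block, gave 0 (0 and 0) in both comparisons, with fewer samples to estimate the spread, and the difference of both additions could not be fitted there. With a mean of at least 1 they were 230 (174 and 56) and 41 (31 and 10). With no filter they were 807 (476 and 331) and 604 (320 and 284), with 139 (84 and 55) for the difference of both additions, and most residual variances were then 0, so that fit is unreliable. Without a trend they were 149 (107 and 42) and 0 (0 and 0), with no fold threshold 574 (405 and 169) and 284 (205 and 79), and at an adjusted p-value under 0.01 they were 104 (91 and 13) and 1 (1 and 0). Leaving out 1 library gave 0 to 214 (0 to 159 and 0 to 55), 0 to 1 (0 to 0 and 0 to 1), and 0 to 1 for the difference. Other pseudocounts, scalings and a mean of at least 20 kept the P+B count within 284 to 377. The cause of these shifts was not tested. The table holds no depth, so what depth limits is unknown.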

Other observations

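The genes in this paragraph lie outside the lists and were picked one by one after their values were seen, so they stand for no group. *Slc38a1*, a glutamine transporter, stood at 52 and 55 TPM with PFI-3 and 26 and 29 with P+B (-0.94, adjusted p = 0.00493). *Bcat2*, of branched-chain amino acid breakdown, went from 66 and 65 to 40 and 41, *Cth*, which makes cysteine, from 90 and 59 to 52 and 38, and *Got1*, an aspartate aminotransferase, from 289 and 271 to 189 and 179. *Atf4* itself stood at 383 and 419 against 283 and 258, a difference of -0.57 that passed the p-value (0.00798) and not the 1.5-fold threshold. *Notch1*, whose feedback gene *Nrarp* is described above, rose from 12 and 10 to 19 and 21 (0.81, adjusted p = 0.0432), and with BI-9564 alone it stood at 19 and 19 against 12 and 10 with DMSO.

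Besides *Ccdc9*, 5 of the 350 genes that passed, all left out by the naming rule, moved in opposite directions in both pairs of the 2 additions: *4930447C04Rik*, *Svbp*, *Ttc23*, *Gm13223* and *Gm37701*. *Ttc23* stood at 17 and 21 TPM with PFI-3 and 8 and 10 with P+B, and at 7 and 7 with DMSO and 12 and 11 with BI-9564. None of the 5 passed the test of the difference, with *Ttc23* at an adjusted p-value of 0.672.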
